A study of Mus musculus with 6 samples.

Results

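Histones are the proteins that package DNA. H2A, H2B, H3 and H4 form the core of the nucleosome, and the linker histone H1 binds the DNA where it enters and leaves that core. Most of these proteins are made from small genes without introns that lie in clusters, are transcribed in S phase and give mRNAs that end in a stem-loop in place of a poly(A) tail. Many genes of a class code for nearly the same protein, which makes single genes hard to tell apart by hybridisation.

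The genes described here are the clustered core and linker histone genes, taken as those whose symbol in the array annotation begins with Hist1h, Hist2h, Hist3h or Hist4h and that have a probe set listed for 1 gene only. The rule gave 28 of the 30702 genes measured, read by 29 probe sets. They comprised 5 H1, 9 H2A, 9 H2B, 3 H3 and 2 H4 genes, of which 22 lay in the Hist1 cluster, 5 in Hist2, 1 in Hist3 and none in Hist4. A further 37 probe sets were listed for several genes, at least 1 of them a clustered histone gene. They reached 41 histone genes that no single-gene probe set reads, and they are described after the members.

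The cells were mouse bone marrow stromal cells, a culture-adherent population that includes progenitors of bone, cartilage and fat cells. One group of 3 arrays came from young mice of 3 months and the other group of 3 from aged mice of 18 months; no strain, sex, genotype or treatment is given for either age. Femurs of both groups were crushed and digested with collagenase, and the cells were sorted for Sca-1 and CD29 and against CD45 and CD11b. They were then cultured and passaged before total RNA was taken, so the values are those of cultured cells and not of cells in the marrow. Replicates are labelled biological, but no label ties each array to its own animal, and the p-values rest on the array-to-array spread alone, which may be technical. No batch is stated, and batch and age cannot be told apart.

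Values are deposited log2 expression values, and differences are aged minus young. The array medians lay between 5.39 and 5.44, and 3 arrays per age limit the precision. The array's negative control probe sets had a median level of 4.79 and a 95th percentile of 7.61, and a value under 7.61 is within their range. Genes with such a value are given by level and difference, with no fold. The sort labels could be checked in part. Itgb1, which encodes CD29, stood at 11.86 ± 0.04 in young and 11.76 ± 0.01 in aged cells (SD, n = 3 each), while Ptprc (CD45) lay between 3.61 and 3.72 and Itgam (CD11b) between 5.21 and 5.36. Ly6a, which encodes Sca-1, was not analysed here. Of 7 stromal markers 4 rose, 1 fell and 2 did not pass, beside 18.4% higher and 22.1% lower over all genes tested. The collagen gene Col1a1 read 12.43 and 13.22 in young and aged cells. Nt5e fell from 7.58 to 7.05, and Thy1 and Eng did not pass. The means of Nt5e, Thy1 and Eng lay within the negative control range. Of 22 measured markers of macrophages, neutrophils, B cells, T cells, erythroid cells and endothelium, 13 were tested. Of the 13, 4 rose and 0 fell, beside 18.4% and 22.1% of all genes tested. They were Ebf1, which marrow stroma also uses, and Cd14, Ly6g and Kdr, whose means lay within the negative control range. Only 1 of the 22 had a mean above that range. The summed log2 level of these markers ran from 119.7 to 121.9 in young and from 124.4 to 124.7 in aged arrays. Their part in the histone values was not tested. In bulk RNA, fewer cells of a type and less RNA per cell cannot be told apart.

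Of the 28 clustered histone genes, 17 had a mean above 5.40, the median of all transcript clusters, and were tested. With age 6 rose (35.3%), 1 fell (5.88%) and 10 did not pass (limma, Benjamini-Hochberg adjusted p under 0.05 over all 20187 genes tested). Over all genes tested 18.4% rose and 22.1% fell. The median difference of the 17 was 0.14, in a range from -0.27 to 0.49, beside 0.01 over all genes tested. The difference was above 0 in 15 of the 17, beside 52.9% of all genes tested, and in 25 of all 28 with those below the filter, beside 54.3% of all genes. No member passed the filter through 1 age alone, as the lowest mean of a tested member was 5.87 and the highest of an untested one 4.99.

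The sizes were small. None of the 6 rises passed a test against a difference of 0.3, which 5.79% of all genes passed upward. The 23 antigenomic background classes, probes that match no mouse sequence, differed by 0.01 to 0.29 with age, all upward. The difference was larger in those rich in G and C, at 0.24, 0.25 and 0.29 in the classes with 23, 24 and 25 such bases. The differences of 4 of the 6 genes that rose lay within that range and 2 above it, and the part of this background in the result was not tested. The median negative control probe set moved the other way, by -0.26. Centring each array on the negative controls raised the difference of every gene by 0.36, which took the median of all genes to 0.37 and gave 16 higher and 0 lower histone genes. The histone median stood 0.13 above the median of all genes, a distance that such a shift leaves as it is by construction. That median of 0.14 was close to the median of the antigenomic classes, 0.11. Classes with 16 to 19 G and C bases had young means of 6.10 to 7.64 and differed by 0.14 to 0.18. Most tested histone genes had means within the negative control range, and the part of background in their median was not tested.

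**Figure D1:**
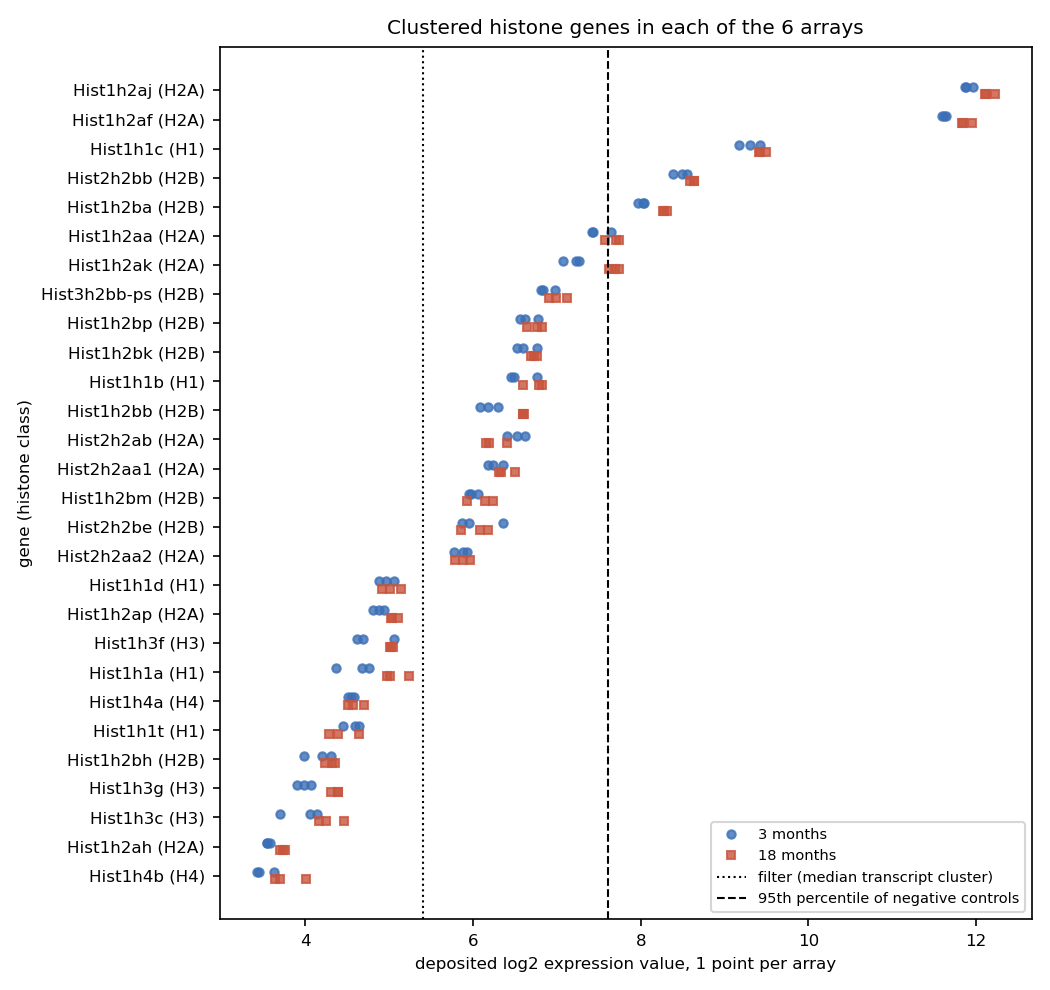
Each row is 1 clustered histone gene with its class, and each point its deposited log2 value in 1 array (blue circles, 3 months; red squares, 18 months); the dotted line is the filter at 5.40 and the dashed line the 95th percentile of the negative controls at 7.61. The mean of 5 genes lies above the dashed line and that of 11 below the dotted one.

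Promoter sequence is shown for the members that passed the test, because histone gene promoters are known for shared elements, namely the CCAAT box, the TATA box and, in H2B genes, the octamer bound by Oct-1. RefSeq's promoter table of GRCm38.p6 held 24 of the 28 members, 6 of the 7 that passed among them, and none for Hist1h2aj. Each line gives the 200 bases before the annotated start, 5′ to 3′ on the gene's strand. Capitals mark matches of 3 motifs, each on either strand. The CCAAT box was searched by those letters, so ATTGG marks it on the other strand. For the TATA box the letters searched were TATAAA. For the octamer they were ATTTGCAT. The windows are chr13:23533675-23533874 (plus strand) for Hist1h2af, chr13:21753913-21754112 (minus) for Hist1h2ak, chr13:23934157-23934356 (minus) for Hist1h2ba, chr13:23746534-23746733 (plus) for Hist1h2bb, chr3:96269500-96269699 (plus) for Hist2h2bb and chr3:96219685-96219884 (plus) for Hist2h2ab, the gene that fell.
Hist1h2af: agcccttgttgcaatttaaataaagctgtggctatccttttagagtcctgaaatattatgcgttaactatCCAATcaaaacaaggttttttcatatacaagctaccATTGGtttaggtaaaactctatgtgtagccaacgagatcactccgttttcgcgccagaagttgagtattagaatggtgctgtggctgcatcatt
Hist1h2ak: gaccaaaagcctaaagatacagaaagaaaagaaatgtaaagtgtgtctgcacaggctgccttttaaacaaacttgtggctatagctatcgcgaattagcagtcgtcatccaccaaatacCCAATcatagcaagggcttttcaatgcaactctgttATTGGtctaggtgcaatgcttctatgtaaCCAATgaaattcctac
Hist1h2ba: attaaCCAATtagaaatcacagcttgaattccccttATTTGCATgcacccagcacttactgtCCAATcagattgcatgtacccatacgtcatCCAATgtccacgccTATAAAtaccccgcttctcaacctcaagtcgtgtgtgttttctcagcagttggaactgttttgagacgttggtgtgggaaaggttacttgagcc
Hist1h2bb: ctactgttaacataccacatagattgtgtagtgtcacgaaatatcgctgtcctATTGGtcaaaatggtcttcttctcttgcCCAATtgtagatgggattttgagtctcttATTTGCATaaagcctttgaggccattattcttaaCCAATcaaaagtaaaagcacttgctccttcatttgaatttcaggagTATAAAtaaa
Hist2h2bb: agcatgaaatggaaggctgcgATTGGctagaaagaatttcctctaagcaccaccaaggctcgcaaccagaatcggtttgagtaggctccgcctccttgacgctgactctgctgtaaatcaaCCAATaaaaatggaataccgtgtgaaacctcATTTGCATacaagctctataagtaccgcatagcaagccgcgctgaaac
Hist2h2ab: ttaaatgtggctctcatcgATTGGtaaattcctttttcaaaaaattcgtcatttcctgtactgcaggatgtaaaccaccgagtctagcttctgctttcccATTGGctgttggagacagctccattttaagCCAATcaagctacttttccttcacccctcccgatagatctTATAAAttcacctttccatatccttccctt

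CCAAT stood in 23 of the 24 member windows (95.8%) and in 29.3% of all 32851 promoters in the table. All 6 printed windows hold it, including that of Hist2h2ab. TATAAA stood in 8 of the 24 (33.3%), beside 9.96% of all promoters. The octamer ATTTGCAT stood in 7 (29.2%), beside 1.38% of all promoters, and these were 5 of the 7 H2B and 2 of the 8 H2A windows. The window of Hist1h2ba shares 120 of its 200 bases with that of its divergent neighbour Hist1h2aa, and that of Hist1h2ah shares 177 with that of Hist1h2bk, so neither pair is independent. The octamers of both H2A windows are those of their H2B neighbours, and the 7 windows hold 5 distinct octamer sites. Matches in the printed windows overlapped in 0 places. A match describes these letters and not a bound factor.

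Among H2A genes, which code for the histone that pairs with H2B, 9 were measured and 7 were tested. Of the 7, 3 rose (42.9%) and 1 fell (14.3%), beside 18.4% and 22.1% of all genes tested. Hist1h2aj (now H2ac14), the brightest member, read 11.97, 11.87 and 11.88 in the young arrays and 12.12, 12.10 and 12.23 in the aged arrays. All aged arrays lay above all young ones. The means were 11.91 ± 0.06 and 12.15 ± 0.07 (SD, n = 3 each), a difference of 0.24 (SE 0.04) or 1.18-fold (limma, adjusted p = 0.00149). Hist1h2af (H2ac10) read 11.64, 11.60 and 11.62 in young and 11.84, 11.84 and 11.95 in aged arrays, again without overlap. It rose 1.20-fold, by 0.26 (SE 0.04) on the log2 scale (limma, adjusted p = 0.000478). A probe set listed for 10 other Hist1 H2A genes, described below, had a mean of 11.90 and a difference of 0.23. Whether the probe sets of Hist1h2aj and Hist1h2af also catch transcripts of other H2A genes was not tested.

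Hist1h2ak (H2ac15) had the largest difference of any tested member. It read 7.26, 7.23 and 7.07 in young and 7.69, 7.62 and 7.74 in aged arrays, and the lowest aged array stood above the highest young one. It rose by 0.49 (SE 0.06; limma, adjusted p = 0.000203), with a young mean of 7.19 ± 0.10 within the negative control range. Hist1h2aa (H2ac1), the testis H2A variant gene, read 7.43, 7.42 and 7.64 in young and 7.70, 7.74 and 7.57 in aged arrays. Its groups overlapped, and the difference of 0.17 did not pass (limma, adjusted p = 0.0876).

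Hist2h2ab (H2ac21), of the Hist2 cluster, was the 1 member that fell. It read 6.62, 6.53 and 6.41 in young and 6.18, 6.40 and 6.15 in aged arrays. The groups stood apart by the narrow gap between 6.41 and 6.40, all values were within the negative control range, and the difference was -0.27 (SE 0.08; limma, adjusted p = 0.0285). The call was lost without young array 1 or 2, without aged array 1 or 3, and in an equal-variance test per gene. Under negative control centring the difference was 0.08. The Hist2 genes Hist2h2aa1 and Hist2h2aa2, a pair of near-identical copies, differed by 0.13 and 0.01 and did not pass (limma, adjusted p = 0.208 and 0.93). Their means of 6.32 and 5.87 lay within the negative control range.

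Of 9 H2B genes, 8 were tested, 3 rose (37.5%) and none fell, beside 18.4% and 22.1% of all genes tested. The class's median difference was 0.12. Hist1h2ba (H2bc1), which encodes the testis form of H2B, read 7.96, 8.04 and 8.02 in young and 8.28, 8.27 and 8.31 in aged arrays. The groups did not overlap. The means were 8.01 ± 0.04 and 8.29 ± 0.02 (SD, n = 3 each), a 1.21-fold rise (limma, adjusted p = 0.000441). Its level lay under the 8.87 that the antigenomic class with 23 G and C bases had in young arrays, and the part of background in this reading was not tested.

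Hist1h2bb (H2bc3), an S phase H2B gene, read 6.17, 6.30 and 6.08 in young and 6.61, 6.59 and 6.59 in aged arrays. It rose by 0.41 (SE 0.06; limma, adjusted p = 0.000844) with every value within the negative control range. Hist2h2bb (H2bc18) read 8.55, 8.49 and 8.38 in young and 8.58, 8.63 and 8.64 in aged arrays. The highest young array was close to the lowest aged one. All these values lay under the 8.87 of the antigenomic class with 23 G and C bases in young arrays. The rise of 0.14 (SE 0.05), or 1.11-fold, passed narrowly (limma, adjusted p = 0.039), and the call was lost under 11 of 18 alternatives, among them median centring and leaving out any array but young array 1. The other tested H2B genes (Hist1h2bk, Hist1h2bm, Hist1h2bp, Hist2h2be and the pseudogene Hist3h2bb-ps) differed by -0.02 to 0.13 and did not pass.

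**Figure D2:**
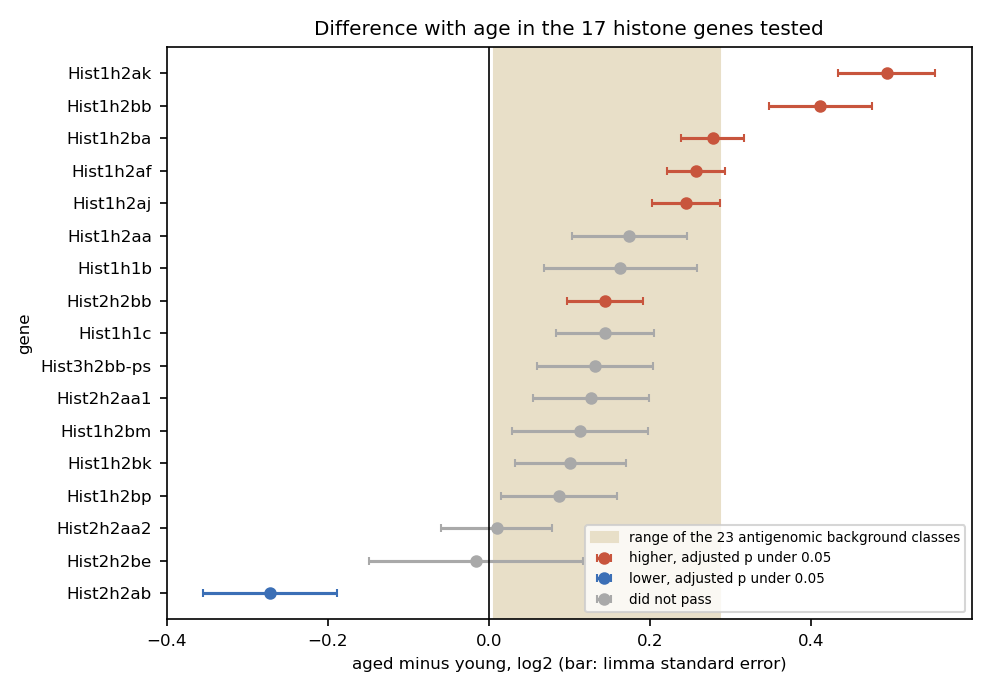
Points are the aged minus young difference of each of the 17 tested genes on the log2 scale, bars its limma standard error; red rose, blue fell, grey did not pass, and the shaded band is the range of the 23 antigenomic classes, 0.01 to 0.29. Hist1h2ak and Hist1h2bb lie to the right of the band and Hist2h2ab alone lies to the left of it by more than its error.

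Of 5 linker histone genes 2 were tested, and neither passed. Hist1h1c (H1f2), a widely expressed linker histone gene, read 9.42, 9.30 and 9.17 in young and 9.42, 9.41 and 9.50 in aged arrays. Its young array 1 lay within the range of the aged arrays, and the difference of 0.14 (SE 0.06) did not pass (limma, adjusted p = 0.0969). Hist1h1b (H1f5) differed by 0.16 and did not pass (limma, adjusted p = 0.221). Hist1h1a, Hist1h1d and the testis linker histone Hist1h1t were below the filter.

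In all, 11 members fell below the filter and were not tested, among them all 3 H3 and both H4 genes with a probe set of their own. Their differences ran from -0.12 (Hist1h1t) to 0.47 (Hist1h1a). In 6 of them the aged arrays lay above the young ones without overlap, namely Hist1h1a, Hist1h2ah, Hist1h2ap, Hist1h3c, Hist1h3g and Hist1h4b. With all 28 members that made 12 genes with aged arrays above and 1 with aged arrays below, beside 19.3% and 19.8% of all genes. With no filter on level, Hist1h1a (adjusted p = 0.0152) and Hist1h3g (adjusted p = 0.00473) passed limma's test among these 11. In that fit 12.1% of all genes, at any level, were called higher. The means of Hist1h1a and Hist1h3g, at most 5.07, lie far inside the negative control range, and no change is read from them.

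The brighter H3 and H4 signal of the array lay in probe sets listed for several genes at once. These 37 probe sets were tested in a fit of every transcript cluster, an alternative added after the data were seen, in which 34 passed the filter. Of the 34, 23 rose (67.6%), 1 fell (2.94%) and 10 did not pass, while 13.5% of all 32978 transcript clusters tested rose and 19.4% fell. The median difference was 0.24, beside 0.00 over all transcript clusters. The differences of 12 of the 23 lay above the highest antigenomic class and 11 within its range. A probe set shared in this way gives the sum of what it catches, and which of its genes moved cannot be told apart. Probe sets for the same genes are also not independent of each other.

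All 6 tested H3 probe sets rose, by 0.36 to 0.73, and 4 of the 6 had means above the negative control range. The 3 probe sets for Hist1h3b, Hist1h3c, Hist1h3d, Hist1h3e, Hist1h3f, Hist2h3b, Hist2h3c1 and Hist2h3c2 rose by 0.37, 0.51 and 0.73. The last of these read 9.60, 9.45 and 9.42 in young and 10.26, 10.20 and 10.19 in aged arrays. The groups were far apart, and the 1.66-fold rise (SE 0.05 on the log2 scale; limma, adjusted p = 1.32e-05) was the largest of any histone probe set tested here. The 3 probe sets for Hist1h3a, Hist1h3g, Hist1h3h and Hist1h3i rose by 0.36, 0.45 and 0.45. Those with means of 5.48 and 6.20 lay within the negative control range. The brightest of the 3 read 8.13, 8.10 and 8.29 in young and 8.62, 8.61 and 8.66 in aged arrays, a 1.37-fold rise (limma, adjusted p = 0.000319). These values too lay under the 8.87 of the antigenomic class with 23 G and C bases in young arrays.

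H4 was divided. Its 10 probe sets carried the same 13 genes, which code for the most conserved histone, yet 4 rose and 6 did not pass, with differences from -0.06 to 0.36. Of the 4, those with means of 5.96 and 6.22 lay within the negative control range. The brightest read 9.87 in each young array and 10.17, 10.28 and 10.18 in the aged ones. It rose 1.27-fold (limma, adjusted p = 0.000149). Another bright one averaged 9.02 ± 0.02 in young and 9.05 ± 0.06 in aged arrays (SD, n = 3 each). Its lowest aged array, at 8.98, lay below the young mean, so the groups overlapped, and the difference of 0.03 did not pass (limma, adjusted p = 0.666). Differences between probe sets of 1 list show that the value for H4 depends on which probe set is read.

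Of 9 shared H2B probe sets, 6 rose and 1 fell. Of the 6, those with means of 7.33 and 7.45 lay within the negative control range. The 4 for Hist1h2bf, Hist1h2bj, Hist1h2bl and Hist1h2bn all rose, by 0.24 to 0.35. One of them read 10.67, 10.58 and 10.54 in young and 10.95, 10.92 and 10.99 in aged arrays, a 1.28-fold rise (limma, adjusted p = 0.000193). The 2 probe sets for Hist1h2bc, Hist1h2be and Hist1h2bg went opposite ways. One read 10.23, 10.22 and 10.26 in young and 10.69, 10.71 and 10.67 in aged arrays and rose 1.37-fold (limma, adjusted p = 8.37e-06). The other read 8.89, 8.83 and 8.72 in young and 8.56, 8.51 and 8.32 in aged arrays and was 1.27-fold lower (limma, adjusted p = 0.00536). Both probe sets had groups that stood well apart, so the annotation's list of genes alone does not settle a direction for these H2B genes. The second call was lost in an equal-variance test per gene. Means of that second probe set, 8.81 in young and 8.47 in aged arrays, lay under the 8.87 of the antigenomic class with 23 G and C bases in young arrays.

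Of 8 tested shared H2A probe sets, 6 rose and none fell. Of the 6, those with means of 6.78 and 7.40 lay within the negative control range. The brightest, for a list of 10 Hist1 H2A genes, read 11.83, 11.78 and 11.74 in young and 11.96, 12.01 and 12.05 in aged arrays, a 1.17-fold rise (limma, adjusted p = 0.00133). The probe set for the pair Hist2h2aa1 and Hist2h2aa2 read 9.36, 9.37 and 9.47 in young and 9.62, 9.56 and 9.61 in aged arrays. It rose 1.14-fold (limma, adjusted p = 0.00607), where the probe sets listed for each copy alone did not pass. Those had means of 6.32 and 5.87, within the negative control range. The 1 probe set that lists the linker histone Hist1h1e, with 3 H2B genes and a predicted gene, rose by 0.21 (limma, adjusted p = 0.0334) within the negative control range.

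**Figure D3:**
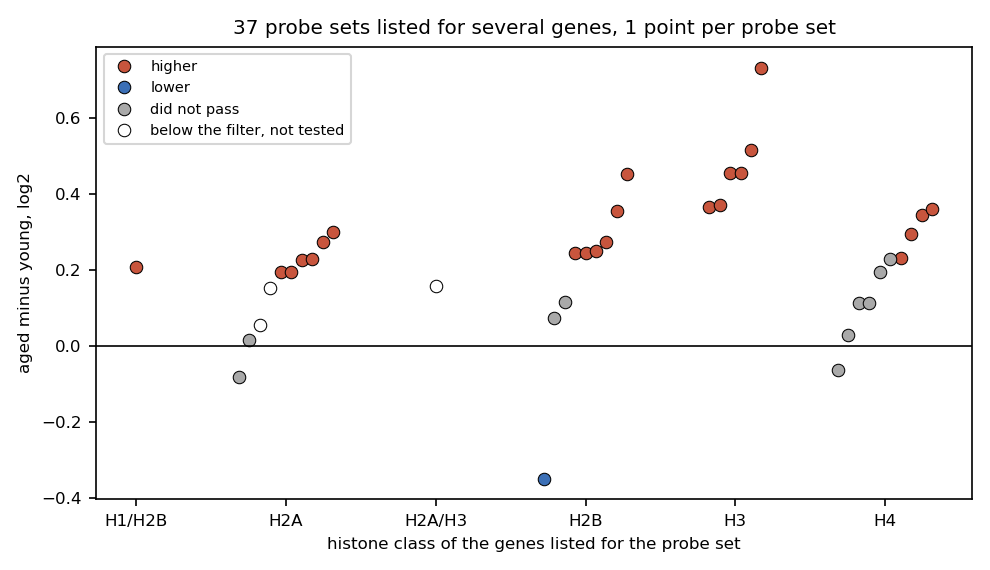
Each point is 1 of the 37 probe sets listed for several genes, placed by histone class, and the vertical axis is its aged minus young difference on the log2 scale; red rose, blue fell, grey did not pass and white was below the filter. All 6 H3 points lie at 0.36 or above, and 1 H2B point is the single blue one, at -0.35.

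Replication-independent histone genes, most of which give poly(A) mRNAs and which supply histones outside S phase too, were compared as the nearest relatives. Of 16 tested, 2 rose (12.5%), 2 fell (12.5%) and 12 did not pass, beside 18.4% higher and 22.1% lower over all genes tested. The median difference was -0.01. Of the 17 measured, 8 had a mean above the negative control range, and the others lay within it. H2ax, whose protein is phosphorylated around DNA breaks, read 9.45, 9.30 and 9.37 in young and 9.69, 9.54 and 9.67 in aged arrays. It rose 1.20-fold without overlap (limma, adjusted p = 0.00371). Cenpa, the H3 variant of centromeres, rose by 0.15 (limma, adjusted p = 0.0463) within the negative control range. That call was lost under 9 alternatives, among them quantile normalization, no filter, the replicate block and leaving out any array but young array 1.

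H2az1, which encodes the variant H2A.Z found beside transcription starts, read 10.79, 10.82 and 10.85 in young and 10.53, 10.53 and 10.54 in aged arrays. It was 1.22-fold lower in aged cells (limma, adjusted p = 4.32e-05). Macroh2a1, whose variant is linked to silent chromatin, was 1.19-fold lower (limma, adjusted p = 0.000689), but the mean of its probe sets differed by 0.08. Under negative control centring both H2az1 (0.07) and Macroh2a1 (0.11) had differences above 0. H3f3a and H3f3b, the genes of the variant H3.3, share 2 probe sets with further H3.3-like genes. They were tested in the fit of every transcript cluster and not in the fit of genes. One differed by -0.09 and did not pass (limma, adjusted p = 0.0909), and the other rose by 0.15 (limma, adjusted p = 0.0128). The H1f0 gene was not analysed here.

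Genes that serve histone transcription and mRNA processing mostly fell. Of 31 tested, 20 fell (64.5%) and 2 rose (6.45%), beside 22.1% and 18.4% of all genes, with a median difference of -0.20; under negative control centring, which shifts every gene alike, 2 fell and 19 rose. The list's median lay 0.21 below that of all genes. Npat, the cyclin E-Cdk2 substrate that switches on histone gene transcription, read 9.33, 9.32 and 9.23 in young and 8.96, 8.91 and 8.93 in aged arrays. It was 1.28-fold lower (SE 0.04 on the log2 scale; limma, adjusted p = 8.02e-05). Its kinase gene Cdk2 was 1.31-fold lower (limma, adjusted p = 0.000732). The cyclin genes Ccne1 and Ccne2 fell by 0.36 and 0.26, to aged means of 7.10 and 6.63. Their means lay within the negative control range at both ages. Hinfp, the factor that binds H4 promoters, was 1.35-fold lower (limma, adjusted p = 0.000966).

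The largest decrease of that list was in Srrt, which encodes the cap complex partner ARS2. It read 9.53, 9.43 and 9.37 in young and 8.66, 8.66 and 8.70 in aged arrays, 1.71-fold lower (limma, adjusted p = 2.23e-06). Ncbp1, a subunit of the cap-binding complex itself, was 1.29-fold lower, and Cpsf2, of the cleavage complex that cuts histone pre-mRNA, 1.21-fold lower. Lsm11, of the U7 particle that guides the cut, fell by 0.25, while its partner Lsm10 differed by 0.03 and did not pass. Slbp, which encodes the protein that binds the stem-loop, read 7.14, 7.15 and 7.11 in young and 7.05, 7.02 and 6.99 in aged arrays. The groups did not overlap, but the difference of -0.12 did not pass (limma, adjusted p = 0.0655), and all values lay within the negative control range. It passed as lower under 6 alternatives, among them quantile normalization, an equal-variance test and the fit without young array 3 (adjusted p from 0.0129 to 0.0493), and its sign turned under negative control centring.

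Among genes of histone mRNA decay, Tut4, a terminal uridylyl transferase, read 8.48, 8.47 and 8.41 in young and 7.78, 7.80 and 7.76 in aged arrays, 1.59-fold lower (limma, adjusted p = 2.01e-06). Its relative Tut7 was 1.12-fold higher (limma, adjusted p = 0.0221), a call lost without any 1 of the aged arrays. The decay factors Upf1, Eri1 and Xrn1 were 1.25-, 1.19- and 1.14-fold lower. Mif4gd, which encodes the SLBP-interacting protein SLIP1 of histone mRNA translation, read 7.54, 7.57 and 7.45 in young and 7.96, 7.98 and 7.97 in aged arrays. It rose by 0.45 (limma, adjusted p = 5.48e-05), from a young mean of 7.52 within the negative control range.

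Histone chaperones, which carry histones to and from DNA, also mostly fell. Of 28 tested, 16 fell (57.1%), 1 rose (3.57%) and 11 did not pass, beside 22.1% lower and 18.4% higher over all genes tested. The median difference was -0.18. Under negative control centring 2 fell and 18 rose. The list's median lay 0.19 below that of all genes. Nap1l1, an H2A-H2B chaperone gene, read 11.34, 11.39 and 11.44 in young and 10.86, 10.83 and 10.79 in aged arrays, 1.47-fold lower (limma, adjusted p = 3.2e-06). Nasp, of the H3-H4 reserve, fell by 0.53, from 7.82 ± 0.05 to 7.29 ± 0.01 (SD, n = 3 each; limma, adjusted p = 1.57e-05). Its aged mean lay within the negative control range. Asf1b, of S phase H3-H4 delivery, was 1.10-fold lower, a call lost under median centring and without young array 2 or any 1 of the aged arrays. The chromatin assembly subunit genes Chaf1a and Chaf1b, and Hira of replication-independent assembly, differed by -0.02, -0.11 and -0.02 and did not pass.

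The partners of H3.3 deposition at repeats went opposite ways. Daxx averaged 9.01 ± 0.03 in young arrays, the highest at 9.05, and read 9.53, 9.50 and 9.55 in aged arrays, a 1.42-fold rise (limma, adjusted p = 3.48e-06). Atrx read 9.52, 9.56 and 9.57 in young and 9.14, 9.14 and 9.09 in aged arrays, 1.34-fold lower (limma, adjusted p = 9.82e-06). Daxx was the 1 chaperone gene on the list that rose.

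Cell cycle genes, given beside the histone genes because these are made in S phase, did not move one way. Of 30 tested, 10 fell (33.3%) and 6 rose (20.0%), beside 22.1% and 18.4% of all genes tested. The share that rose was thus close to that of all genes. The list's median difference was -0.07. Among the 10 that fell were the replication genes Cdt1, Mcm3, Mcm4 and Pcna, by 0.40, 0.35, 0.30 and 0.24; under negative control centring 0 of the 30 fell and 21 rose. Bub1, of the spindle checkpoint, also fell by 0.40, to an aged mean of 7.42 within the negative control range. The 6 that rose included the nucleotide and primer synthesis genes Tk1 and Prim1, by 0.25 and 0.27 (limma, adjusted p = 0.00214 and 0.0146). Their aged means of 7.59 and 6.99 and their young means lay within the negative control range. The cyclin genes Ccnb2 and Ccna2 and the mitosis gene Plk1 rose 1.92-, 1.44- and 1.38-fold (limma, adjusted p = 1.11e-05, 1.58e-05 and 0.000112). The proliferation marker Mki67 rose 1.16-fold (limma, adjusted p = 0.0018). The call for Prim1 was lost under quantile normalization, in an equal-variance test and without aged array 1 or 2. The cell cycle genes Cdk1, Top2a and Aurka differed by -0.10, 0.03 and 0.07 and did not pass. The part of cell cycle phase in the histone values was not tested.

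**Figure D4:**
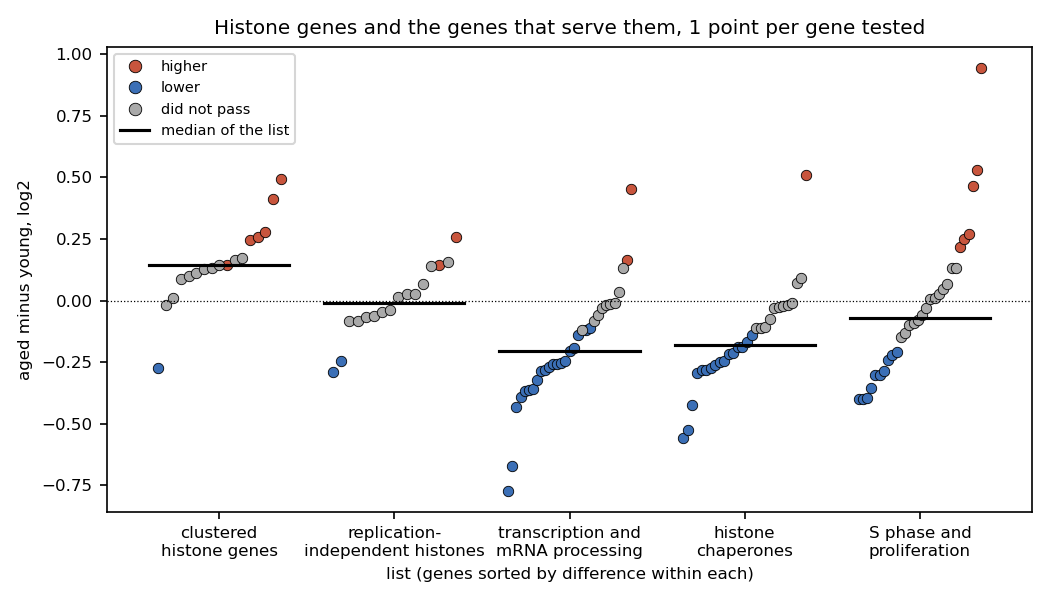
Points are tested genes, sorted by their aged minus young log2 difference within each list, and black lines the list medians; red rose, blue fell, grey did not pass. The median lies at 0.14 for clustered histone genes, -0.01 for replication-independent ones, -0.20 for transcription and processing, -0.18 for chaperones and -0.07 for S phase and proliferation genes.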

How the data were processed

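Expression was measured on 6 Affymetrix arrays, 3 per age, with groups taken from the sample titles. Biotin-labelled cRNA was made from total RNA, per the labels' protocols; how it was primed, which matters for mRNAs without a poly(A) tail, is not stated. The deposited table holds the log2 expression values the authors made for 72688 probe sets. Per the submitters' processing notes MAS5 was used, and no version is given there. Background correction, scaling and summarisation steps beyond this name are not given in the sources. Values were used as deposited.

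Of 32750 annotated probe sets 31258 had 1 gene. Where a gene had several, the one brightest on average was kept, and genes with a mean under 5.40 were not tested. Ages were compared with limma 3.58.1 (R 4.3.3; lmFit, eBayes with an intensity trend), with Benjamini-Hochberg adjustment over 20187 genes, and the fit was tested on simulated data. A two-sided exact permutation test cannot go below p = 0.1 here, so calls rest on the model. Folds are antilogs of log2 differences.

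The members and lists were chosen with earlier results of these data known. Any member could be named. Values per array go to the members that passed the test and the brightest ones. Of other lists, up to 6 genes per direction with the smallest p could be named, with fixed genes such as Slbp, Npat and Pcna. Of these, Snrpd3, Ipo5, Rbbp4 and Supt16 appear only among the sign changes given below. Further genes of those lists (Hinfp, Lsm10, Lsm11, Upf1, Eri1, Xrn1, Asf1b, Chaf1a, Chaf1b, Hira, Bub1, Cdk1, Top2a, Aurka) and the markers were chosen after their values were seen. Protein identity between members was not analysed here. The labels do not say whether the replicate numbers pair the arrays, and the main fit used no pairing. Same-numbered arrays had correlations of deviations of -0.05, 0.07 and 0.02, and differently numbered ones from -0.08 to 0.04. With 3 arrays per age these values cannot settle whether arrays were paired. Alternatives were other scalings, filters, variance models, a replicate block, a minimum difference of 0.3 and each array left out.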

Additional observations from a re-analysis of the deposited data

How the results depend on the processing

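Hist1h2aj, Hist1h2af, Hist1h2ba, Hist1h2ak and Hist1h2bb kept direction and call under each alternative that gave a value, except a test against a difference of 0.3, which 0 members passed; Hist1h2ak and Hist1h2bb are not tested where genes in the negative control range are left out, nor Hist1h2bb without the lower 70% of transcript clusters. The members called higher and lower numbered 6 and 1 as reported, 16 and 0 under negative control centring, and 5 to 8 and 0 to 1 with an array left out. None was lower in an equal-variance test, without the lower 70% or without genes in the negative control range, the last 2 leaving Hist2h2ab untested. The members' median moved to 0.50 under negative control centring and 0.24 without genes in the negative control range, which left 5. The replicate block gave 5 members higher and 1 lower, and 1 replication-independent gene higher in place of 2.

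Of the probe sets listed for several genes, 15 rose without those in the negative control range, 3 at a minimum difference of 0.3, and 21 to 26 with an array left out; 0 fell under negative control centring, in an equal-variance test or at that minimum. For the lists, negative control centring gave 14 higher and 0 lower replication-independent genes, 19 and 2 processing genes and 18 and 2 chaperones. The minimum difference gave 0 and 0, 1 and 2, and for chaperones 3 lower. Replication-independent genes higher numbered 1 under quantile normalization, no filter or without the negative control range, and 1 to 2 with an array left out, while 1 was lower with the mean of all probe sets. Processing genes higher numbered 1 in an equal-variance test and 1 to 3 with an array left out; chaperones higher numbered 2 under quantile normalization and 1 to 2 with an array left out.

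Negative control centring adds 0.36 to every difference. Among genes named in the text and tested under it, the sign changed for Hist2h2ab (0.0833), Hist2h2be (0.34), Slbp (0.24), H2az1 (0.0668), Macroh2a1 (0.11), Pcna (0.11), Ccne2 (0.10), Itgb1 (0.26), Snrpd3 (0.0683), Cpsf2 (0.0845), Ipo5 (0.0595), Rbbp4 (0.0716), Supt16 (0.11), Mcm4 (0.0534), Mcm3 (0.00057), Lsm11 (0.10), Upf1 (0.0336), Eri1 (0.0991), Xrn1 (0.16), Asf1b (0.21), Chaf1a (0.33), Chaf1b (0.24), Hira (0.34) and Cdk1 (0.25). Macroh2a1 did so with the mean of its probe sets (0.0778). The near-zero difference of Hist2h2be changed sign under median centring (0.00387) and without young array 1 or aged array 3, and that of Hist2h2aa2 without young array 3 or aged array 1; with an array left out they ran from -0.11 to 0.13 and from -0.035 to 0.057. Hira changed sign under median centring (0.00341), and with an array left out it ran from -0.057 to 0.022 and Lsm10 from -0.017 to 0.069. Apart from the construction of these settings, the cause was not tested. Signal over background limits the 23 members whose mean lies within the negative control range.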
